A study of Homo sapiens with 12 samples.

Results

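The 10 genes described here act in DNA replication and in the step from G1 into S phase. They were taken by name from the deposited table of ribosome footprint counts. They are the 6 helicase subunit genes MCM2 to MCM7, the deoxynucleotide enzyme genes TK1 and RRM2, and the E cyclin genes CCNE1 and CCNE2. All 10 members are among the 13074 genes of the table, and all 10 passed the filter on low counts that kept 10467 genes for testing. The cells were A375, an established human melanoma line. The 4 groups of 3 libraries were FTSJ1 knockout cells without selenite, control cells without selenite (genotype WT in the labels), FTSJ1 knockout cells with 30 nM sodium selenite, and control cells with 30 nM sodium selenite. FTSJ1 is a methyltransferase that modifies the anticodon loop of tRNAs, and the design asked what its loss does to the translation of selenoproteins. The labels name a single knockout line, KO1, so what FTSJ1 loss did and what else may set that line apart from control cells cannot be told apart. No agent other than selenite is named for any group, and footprints alone were used here, so a change of the mRNA and a change of its translation cannot be told apart.

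MCM2 to MCM7 form a ring around DNA. The origin recognition complex, CDC6 and CDT1 load this ring at replication origins in G1, and it starts to unwind DNA in S phase once CDC45 and the GINS complex have joined it. TK1 makes thymidine monophosphate from thymidine, and RRM2 is the small subunit of ribonucleotide reductase, which makes deoxynucleotides from ribonucleotides. Cyclins E1 and E2 activate CDK2 at the entry into S phase, p21 (CDKN1A) inhibits that kinase, and E2F factors, held back by proteins of the RB family, switch on many genes of replication in late G1.

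Letters of E2F sites stand close to the start sites of the helicase genes, and they are shown because the members are textbook E2F targets. RefSeq windows of 300 bases (GRCh38.p14, 250 before to 50 after a gene's start) were at hand for 7 of the 10 members, MCM2, MCM3, MCM6, MCM7, TK1, RRM2 and CCNE1. They were searched on both strands for the 4 words TTTCCCGC, TTTCGCGC, TTTGCCGC and TTTGGCGC, of which a pair can overlap on opposite strands. The windows of MCM2, MCM3, MCM6 and MCM7 hold such a word, against 3.31% of all 35116 windows of that length and 7.09% of the 8673 tested genes with a window. The site nearest to the start of each is printed 5′ to 3′ on the gene's strand, with the matched letters in capitals.
MCM2, chr3:127598404-127598433, plus strand: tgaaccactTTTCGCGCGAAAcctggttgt
MCM3, chr6:52284730-52284755, minus strand: ttcggaagtTTTCGCGCcggggtgga
MCM6, chr2:135876513-135876542, minus strand: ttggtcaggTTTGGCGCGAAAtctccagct
MCM7, chr7:100101390-100101415, minus strand: ggggcgacgTTTCGCGCcaatttcgg
In MCM2 and MCM6 a word on each strand overlaps within a stretch of 12 bases, and MCM3, MCM6 and MCM7 each have a further site farther upstream. The windows of TK1, RRM2 and CCNE1 hold none of these 4 words. CCAAT, the letters that NF-Y binds, was found in 5 of the 7 matched members and in 34.6% of all windows and 44.4% of the tested genes with one. A match is a description of the letters, not of binding.

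Footprint levels are given as CPM, the count of a gene relative to the size of its library, with library sizes adjusted by TMM for differences in composition, and changes as log2 fold changes with an approximate standard error (SE). The libraries held between 520989 and 1543627 counts, and their median was 1336000. Replicates 2 and 3 of the knockout cells with selenite were the shallowest, with 636920 and 520989 counts, and they also had the highest levels of histone footprints, as described further on. The members' calls that rest on that group, and the counts over gene lists, are therefore given with and without both of them. FTSJ1 itself had 0 to 6.31 CPM in knockout and 45.4 to 54.7 CPM in control libraries without selenite, and 0 to 11.98 against 53.6 to 72.2 CPM with it. It had a log2 fold change of -4.41 ± 0.54 (edgeR, adjusted p = 5.0e-05) without selenite and -3.69 ± 0.53 (adjusted p = 0.00011) with it. The melanoma genes SOX10, MITF, S100B, S100A1 and ERBB3 were present in every group, and DCT was near 0. The listed markers PMEL, MLANA, TYR and TYRP1 were not found by name among the genes of the deposited counts. The summed level of the 6 melanoma markers in the table was 566 to 659 CPM in knockout and 1069.6 to 1128 CPM in control libraries without selenite, and 773 to 934 against 1075 to 1155 CPM with it. The 4 listed markers of dedifferentiated melanoma lines differed in both directions. Without selenite TGFBI averaged 1801 CPM in knockout and 317 CPM in control cells and EGFR 97.3 against 20.6 CPM, but AXL 51.5 against 223 CPM and NGFR 5.01 against 83.7 CPM. The part of these differences in the results on the members was not tested. Markers of fibroblasts summed to 37.0 to 59.0 CPM over all libraries, and those of keratinocytes, leukocytes and endothelium to at most 24.8 CPM.

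**Figure D1:**
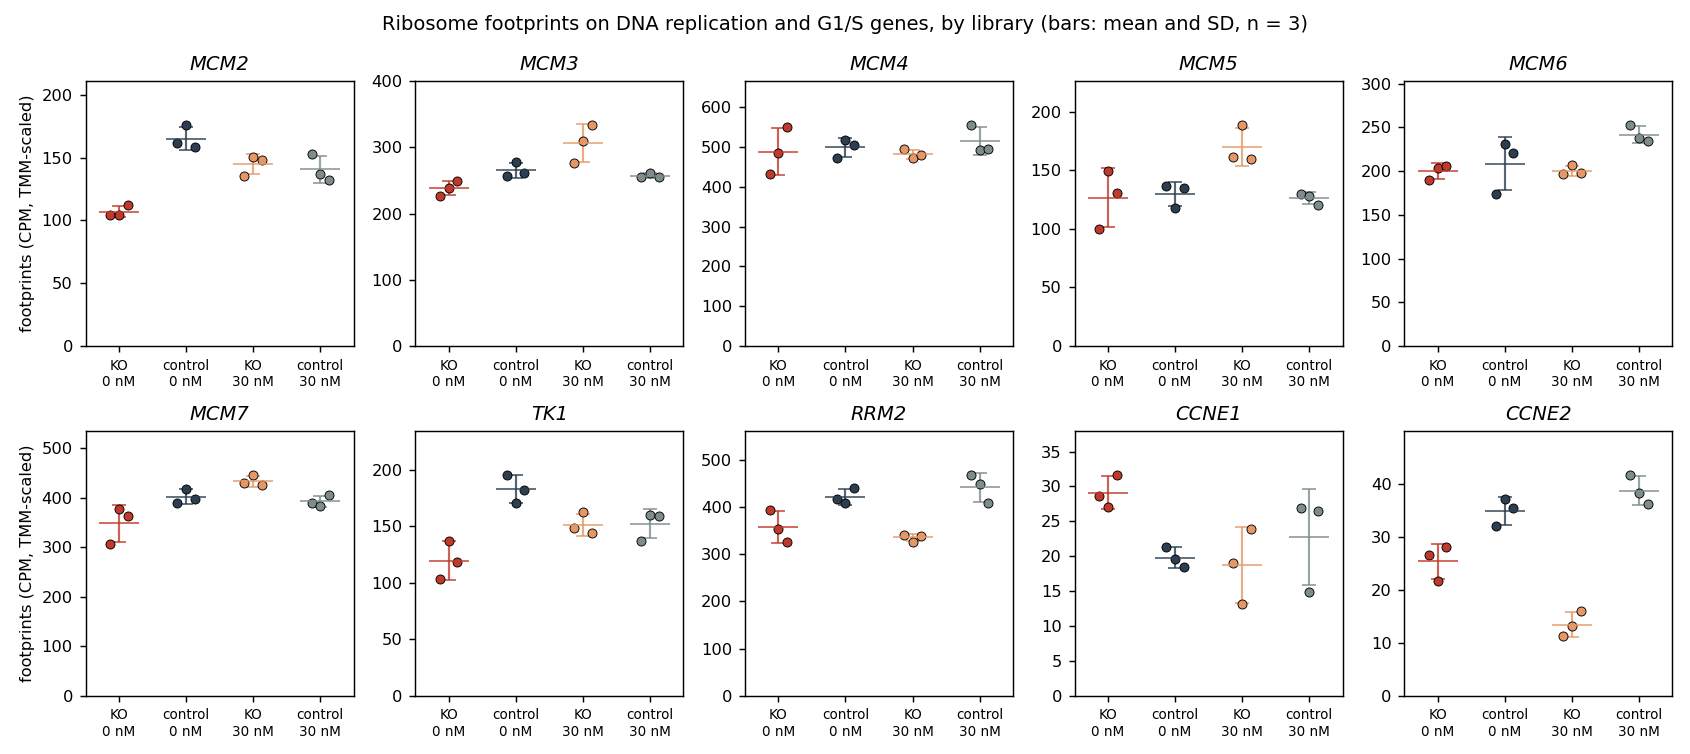
Footprint levels (CPM, TMM-scaled, axes from 0) of the 10 members in each of the 12 libraries, with knockout (KO) left of control at 0 and at 30 nM selenite, and bars for the mean and SD of 3 libraries. MCM2 and TK1 are lowest in KO cells at 0 nM, and CCNE2 is lowest in KO cells at 30 nM, at 11.2 to 16.0 CPM.

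Without selenite, knockout cells had fewer footprints on MCM2 and TK1 than control cells. MCM2 had 104, 105 and 112 CPM in knockout cells, against 161, 176 and 158 CPM in control cells. TK1 had 103, 137 and 119 CPM in knockout cells, against 195, 171 and 182 CPM in control cells. For both genes every knockout library was below every control library. MCM2 averaged 107 ± 4.32 CPM in knockout and 165 ± 9.35 CPM in control cells (SD, n = 3 each), a log2 fold change of -0.63 ± 0.12 (edgeR quasi-likelihood, Benjamini-Hochberg adjusted p = 9.4e-05, 95% interval -0.87 to -0.39), which is 1.54-fold lower. TK1 averaged 119 ± 17.0 CPM in knockout and 183 ± 12.4 CPM in control cells, a log2 fold change of -0.62 ± 0.12 (adjusted p = 0.00017, interval -0.87 to -0.37). Both calls were kept in all 21 other settings tried. In bulk libraries fewer cells in S phase and fewer footprints per cell cannot be told apart.

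Over the 10 members 2 fell and 0 rose in this comparison, in which 23.9% of all tested genes were called, 12% lower and 11.8% higher. The share of members called is thus near the background. DESeq2 called the same number, 2 members, and 6 members had an unadjusted p under 0.05. The log2 fold change was below 0 in 9 of the 10, with a median of -0.18 against -0.00014 over all tested genes. In 6 members (MCM2, MCM3, MCM7, TK1, RRM2 and CCNE2) the knockout libraries all lay below the control libraries, which 19.8% of tested genes did, and in CCNE1 they all lay above, which 20% did.

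The other helicase genes did not pass. MCM7 had 305, 377 and 362 CPM in knockout cells, against 390.0, 418 and 397 CPM in control cells. MCM3 had 227, 239 and 249 CPM in knockout cells, against 256, 278 and 261 CPM in control cells. The groups did not overlap in either gene, and neither passed (log2 fold changes -0.21 ± 0.10 and -0.15 ± 0.10, adjusted p = 0.12 and 0.30 by edgeR). MCM4, MCM5 and MCM6 overlapped between the groups, with log2 fold changes of -0.03, -0.04 and -0.06 and 95% intervals that reached from -0.31 to 0.23. Their knockout and control means were 488 ± 59.2 and 499 ± 23.3 CPM for MCM4. They were 127 ± 25.3 and 129.7 ± 10.5 CPM for MCM5, and 199.7 ± 9.10 and 209 ± 30.3 CPM for MCM6. Relative to the mean, the most scattered libraries were those of MCM5 in knockout cells, at 99.6, 149.6 and 131 CPM, and of MCM6 in control cells, at 174, 231 and 221 CPM.

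MCM2 also made up a smaller part of the helicase footprints. Among all footprints on MCM2 to MCM7, MCM2 held 7.12 ± 0.51% in knockout and 9.89 ± 0.40% in control cells without selenite (SD, n = 3 each), with libraries at 6.71 to 7.68% against 9.43 to 10.1%. Such shares also depend on gene length, so only their difference between groups is read. The summed level of the 6 genes was 1508 ± 133 CPM in knockout and 1669 ± 74.2 CPM in control cells, and the libraries overlapped (1357 to 1609 against 1591 to 1739 CPM).

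RRM2 had 394, 354 and 326 CPM in knockout cells, against 417, 408 and 439.8 CPM in control cells. All knockout libraries were lower, and the log2 fold change of -0.23 ± 0.10 did not pass (edgeR, adjusted p = 0.073). It passed in 5 of 21 other settings, without replicate 1 of the knockout cells at either selenite level among them. The E cyclin genes moved apart. CCNE1 had 28.6, 27.0 and 31.7 CPM in knockout cells, against 21.3, 19.6 and 18.4 CPM in control cells, and CCNE2 had 26.6, 21.6 and 28.0 CPM in knockout cells, against 32.0, 37.0 and 35.5 CPM in control cells. The groups did not overlap in either gene, CCNE1 being above and CCNE2 below in knockout cells. Neither passed by edgeR (0.55 ± 0.23 with adjusted p = 0.079 for CCNE1, and -0.44 ± 0.20 with adjusted p = 0.10 for CCNE2). These rest on few reads, 26 to 43 counts per library for CCNE1 and 24 to 51 for CCNE2.

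**Figure D2:**
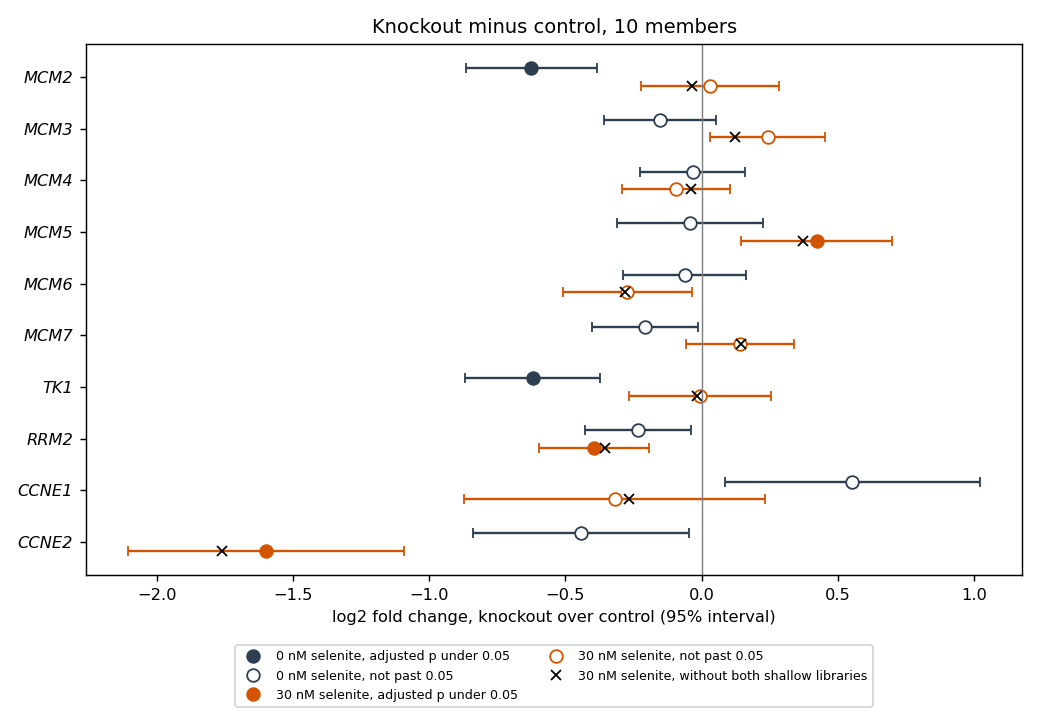
Log2 fold change of each member, knockout over control, with its 95% interval, at 0 nM (upper symbol of each pair) and 30 nM selenite (lower symbol). Filled symbols passed an adjusted p of 0.05, and crosses give the 30 nM value without both shallow libraries. MCM2 and TK1 are filled at 0 nM, and MCM5, RRM2 and CCNE2 at 30 nM.

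With selenite, CCNE2 and RRM2 were lower and MCM5 higher in knockout cells. CCNE2 had 11.2, 13.1 and 16.0 CPM in knockout cells, against 41.7, 38.2 and 36.2 CPM in control cells. The groups were far apart, with 17, 8 and 8 counts in the knockout libraries against 51, 36 and 48 in the control libraries. CCNE2 averaged 13.4 ± 2.41 CPM in knockout and 38.7 ± 2.75 CPM in control cells (SD, n = 3 each), a log2 fold change of -1.60 ± 0.25 (edgeR, adjusted p = 2.8e-06), 3.03-fold lower. Without both shallow libraries it was -1.76 ± 0.32 (adjusted p = 7.6e-05). Of all tested genes 2.32% had a lower value.

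RRM2 had 341, 326 and 339 CPM in knockout cells, against 468, 449 and 408 CPM in control cells. The groups did not overlap, and the log2 fold change was -0.40 ± 0.10 (edgeR, adjusted p = 0.0015), or -0.35 ± 0.13 (adjusted p = 0.042) without both shallow libraries. RRM2 and CCNE2 are the 2 members in which all 6 knockout libraries were below all 6 control libraries over both selenite levels, as were 9.26% of tested genes. No member had all knockout libraries above, as 9.62% did, and 0 members were called the same way at both selenite levels, while 8.02% of tested genes were lower and 8.53% higher at both. MCM5 had 161, 189 and 159.7 CPM in knockout cells, against 129.9, 128 and 121 CPM in control cells. All knockout libraries were higher, with a log2 fold change of 0.42 ± 0.14 (edgeR, adjusted p = 0.012). The MCM5 call was lost without replicate 2 of the knockout cells with selenite and without both shallow libraries (0.37 ± 0.17, adjusted p = 0.11).

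In this comparison 1 member rose and 2 fell, while 42.9% of tested genes were called, 21.3% higher and 21.6% lower, so the members' share was below the background. DESeq2 also called 3. The members scattered around 0, with a median of -0.05 against -0.02 over all genes, and in 3 members each the knockout libraries all lay above or all below the control libraries (24.7% and 25.2% of tested genes). MCM2 and TK1, the genes called without selenite, had overlapping groups here. MCM2 had 136, 151 and 148 CPM in knockout cells, against 153, 137 and 132 CPM in control cells. TK1 had 148, 162 and 144 CPM in knockout cells, against 137, 160.3 and 159 CPM in control cells. Their log2 fold changes were 0.03 (95% interval -0.22 to 0.28) and -0.01 (-0.27 to 0.26).

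The remaining helicase genes pulled in different directions and did not pass. MCM3 had 276, 309.8 and 333 CPM in knockout cells, against 256, 261 and 254 CPM in control cells (edgeR log2 fold change 0.24 ± 0.11, adjusted p = 0.058). MCM6 had 196, 207 and 198 CPM in knockout cells, against 252, 238 and 234 CPM in control cells (-0.27 ± 0.12, adjusted p = 0.057). The groups did not overlap in either gene, MCM3 being above and MCM6 below in knockout cells. MCM3 passed in 7 of 21 other settings and MCM6 in 3 of 21. MCM7 had 429, 446 and 425 CPM in knockout cells, against 389, 383 and 405 CPM in control cells (0.14 ± 0.10, adjusted p = 0.25). MCM4 overlapped, at 482 ± 11.4 CPM in knockout and 515 ± 34.6 CPM in control cells. MCM6 held 11.5 ± 0.16% of the footprints on MCM2 to MCM7 in knockout and 14.4 ± 0.16% in control cells with selenite, and MCM2 held 8.33 ± 0.28% and 8.40 ± 0.39%. The summed level of the 6 genes was 1736 ± 40.9 CPM in knockout and 1673 ± 53.4 CPM in control cells, with overlapping libraries. CCNE1 had 19.1, 13.1 and 24.0 CPM in knockout cells, against 27.0, 14.9 and 26.4 CPM in control cells, and these overlapped (-0.32 ± 0.27, adjusted p = 0.36).

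The balance between the E cyclin genes separated the genotypes at both selenite levels. It was computed after the values of both genes had been seen and is a description. The ratio of CCNE1 to CCNE2 counts was 1.08, 1.25 and 1.13 in knockout and 0.667, 0.529 and 0.520 in control cells without selenite. With selenite it was 1.71, 1 and 1.5 in knockout and 0.647, 0.389 and 0.729 in control cells. All 6 knockout libraries lay above all 6 control libraries. Over the summed counts of a group, the ratio was 1.14 in knockout (116 to 102 counts) and 0.570 in control cells (85 to 149 counts) without selenite, and 1.48 (49 to 33 counts) against 0.607 (82 to 135 counts) with it. The ratio itself depends on the lengths of both genes, so it does not say which cyclin is made more. Without selenite both genes contribute to the difference. With selenite only CCNE2 does, as the CCNE1 mean was lower in knockout cells too (18.7 against 22.7 CPM, overlapping libraries).

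**Figure D3:**
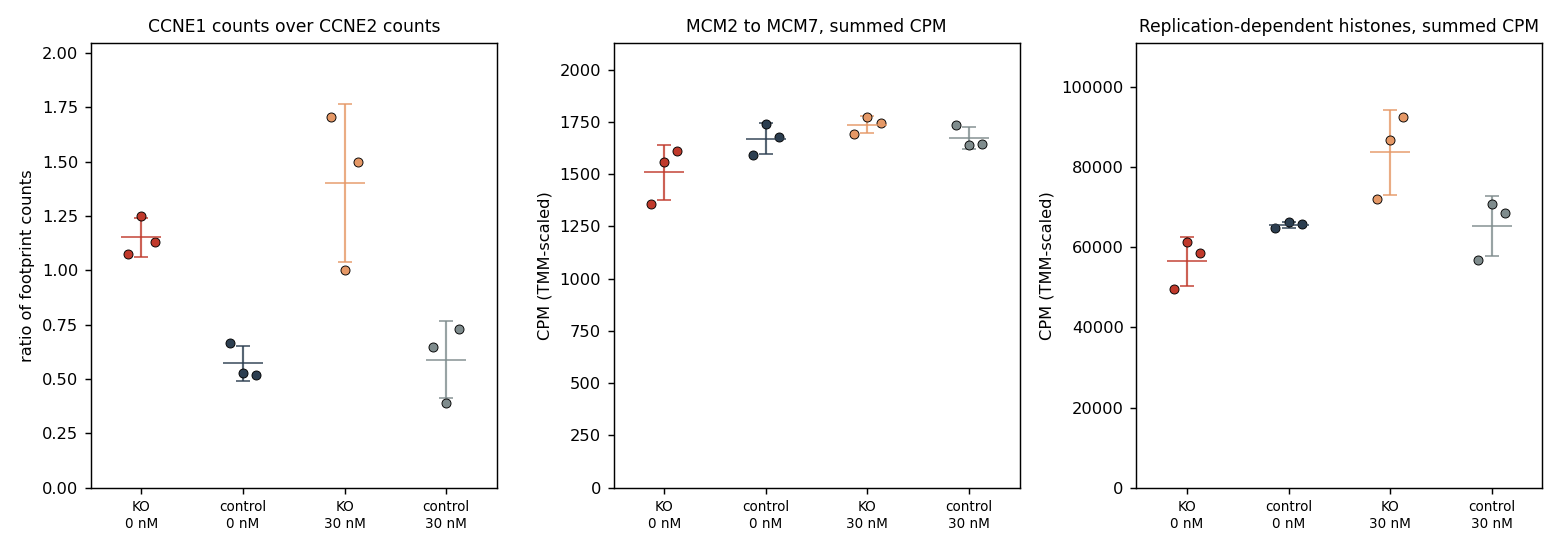
Per library, with KO left of control at each selenite level and bars for the mean and SD (n = 3), the ratio of CCNE1 to CCNE2 counts, the summed CPM of MCM2 to MCM7, and the summed CPM of replication-dependent histone genes (axes from 0). The E cyclin ratio is 1 to 1.71 in KO and 0.389 to 0.729 in control libraries, whereas the helicase sums overlap between genotypes, and the histone sum is highest in KO cells at 30 nM.

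Selenite itself was then compared with no selenite within each genotype. In control cells 0 of 10 members passed by edgeR and 0 by DESeq2, and 1 member, TK1, had an unadjusted p under 0.05. Of all tested genes only 2, or 0.0191%, were called, and 284 had an unadjusted p under 0.05. TK1 averaged 152 ± 12.8 CPM with and 183 ± 12.4 CPM without selenite (log2 fold change -0.27 ± 0.12), and MCM2 141 ± 10.8 CPM with and 165 ± 9.35 CPM without (-0.23 ± 0.12). In both genes the control libraries with selenite were all below those without, as in 4.47% of tested genes. MCM6 went the other way, with 241 ± 9.73 CPM with and 209 ± 30.3 CPM without selenite (0.21 ± 0.11) and no overlap, as in 4.07% of tested genes. The remaining members had log2 fold changes of -0.04 to 0.23. The intervals of the E cyclin genes were wide, -0.26 to 0.72 for CCNE1 and -0.23 to 0.53 for CCNE2.

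In knockout cells MCM2, MCM3, MCM5 and MCM7 were higher and CCNE2 was lower with selenite. MCM2 averaged 145 ± 8.03 CPM with and 107 ± 4.32 CPM without selenite (SD, n = 3 each), a log2 fold change of 0.43 ± 0.13 (edgeR, adjusted p = 0.015). MCM3 averaged 307 ± 28.6 CPM with and 238 ± 10.8 CPM without (0.35 ± 0.10, adjusted p = 0.015). MCM5 averaged 169.8 ± 16.2 CPM with and 127 ± 25.3 CPM without (0.43 ± 0.14, adjusted p = 0.024). In each of these genes, and in MCM7 (0.32 ± 0.10, adjusted p = 0.019), all libraries with selenite were above all libraries without. With TK1 these made 5 members, against 18.3% of tested genes, and CCNE1 and CCNE2 lay below without overlap, against 18.8%. MCM4 had -0.02 (95% interval -0.21 to 0.18) and MCM6 0.002 (-0.24 to 0.24), with overlapping libraries. TK1 averaged 151 ± 9.69 CPM with and 119 ± 17.0 CPM without selenite and did not pass (0.35 ± 0.13, adjusted p = 0.053). CCNE2 averaged 13.4 ± 2.41 CPM with and 25.4 ± 3.33 CPM without (-1.004 ± 0.26, adjusted p = 0.0065), and CCNE1 18.7 ± 5.43 CPM with and 29.1 ± 2.35 CPM without (-0.64 ± 0.26, adjusted p = 0.074). RRM2 overlapped (-0.09 ± 0.10).

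So 4 members rose and 1 fell, beside 20.5% of all tested genes called, 10.2% higher and 10.3% lower. All 5 calls were lost without both shallow libraries, when 54 genes in all, 0.49% of those tested, were called. The log2 fold changes then were 0.36 ± 0.15 for MCM2, 0.23 ± 0.13 for MCM3, 0.38 ± 0.17 for MCM5, 0.32 ± 0.12 for MCM7 and -1.17 ± 0.33 for CCNE2 (edgeR, adjusted p = 0.26, 0.39, 0.29, 0.21 and 0.090). That fit has only 1 library of knockout cells with selenite, which is assumed to vary like the other groups. Single knockout libraries also decided calls. MCM2, MCM3, MCM5 and MCM7 were lost without replicate 1 of the cells without selenite (1 member and 802 genes called), and MCM5 also without replicate 3. MCM2, MCM5 and MCM7 were lost without replicate 2 of the cells with selenite (2 members and 1044 genes called), MCM3 without replicate 3 and CCNE2 without replicate 1 of them. With a library left out, MCM2 ranged from 0.41 to 0.46, MCM3 from 0.29 to 0.41, MCM5 from 0.29 to 0.58, MCM7 from 0.25 to 0.40 and CCNE2 from -1.11 to -0.84.

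Changes with selenite in knockout cells also moved with the gene density around a gene. Across 10461 genes, which are not independent replicates, Spearman's rho between the log2 fold change and the number of protein-coding genes within 1 Mb was 0.43 in knockout cells and -0.07 in control cells. For knockout against control it was 0.30 with and -0.0023 without selenite. The members lie in surroundings of 7 (CCNE1) to 73 (MCM7) such genes, against a median of 21. With this trend removed from each library, the change of MCM7 with selenite in knockout cells was -0.02 ± 0.09 (edgeR, adjusted p = 0.93), whereas MCM2, MCM3 and MCM5 had 0.58, 0.47 and 0.59 (adjusted p = 0.0015, 0.0019 and 0.0034). For knockout against control with selenite MCM3 then passed (0.35 ± 0.10, adjusted p = 0.0065), and MCM6 had -0.03 ± 0.11 (adjusted p = 0.89). MCM7 lies on chromosome 7 at 100092728 to 100101397 (GRCh38.p14), MCM2 on chromosome 3 at 127598411 to 127622436, MCM3 on chromosome 6 at 52264015 to 52284742 and MCM5 on chromosome 22 at 35400140 to 35455031.

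**Figure D4:**
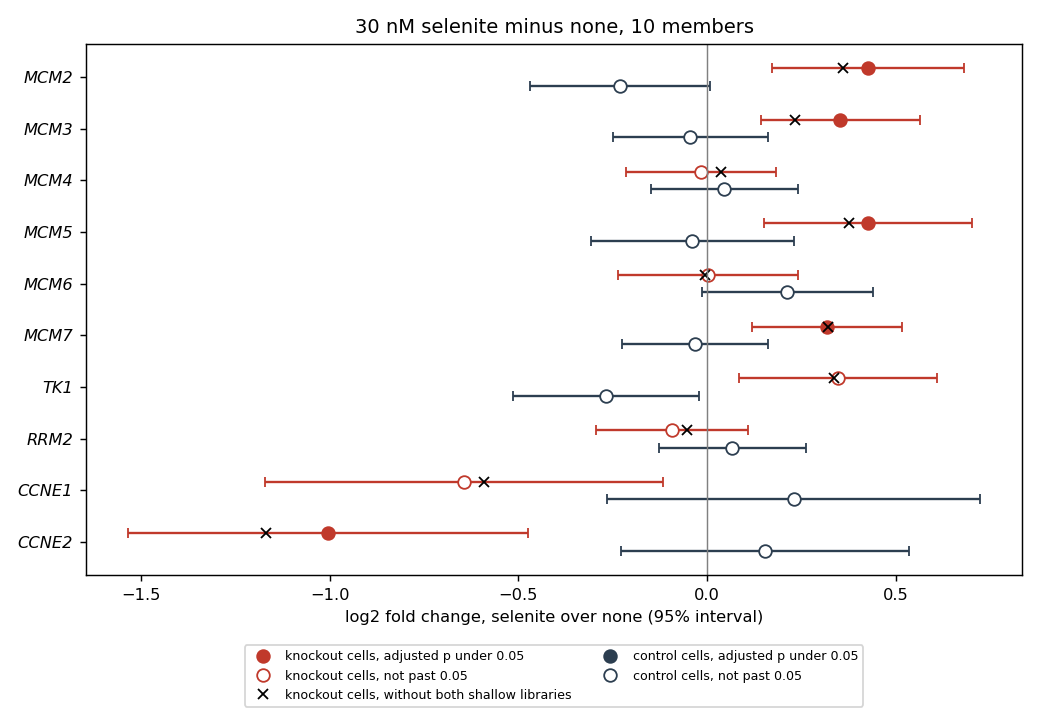
Log2 fold change of each member, 30 nM selenite over none, with its 95% interval, in knockout cells (upper symbol of each pair) and control cells (lower symbol). Filled symbols passed an adjusted p of 0.05, and crosses give the knockout value without both shallow libraries. MCM2, MCM3, MCM5, MCM7 and CCNE2 are filled in knockout cells, and no member is filled in control cells.

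Whether the knockout effect differed with selenite was tested as an interaction, the knockout change with selenite minus that without. It passed for 3 members, MCM2 (0.66 ± 0.17, edgeR adjusted p = 0.020), TK1 (0.61 ± 0.18, adjusted p = 0.030) and CCNE2 (-1.16 ± 0.32, adjusted p = 0.026), beside 7.45% of all tested genes, 3.76% higher and 3.69% lower. DESeq2 gave 2 calls among the members. MCM2 and TK1 were lower in knockout cells without selenite and close to control with it, and CCNE2 was farther below control with it. Part of the difference of MCM2 and TK1 lies in control cells, where they changed with selenite by -0.23 and -0.27 (neither passed). In knockout cells they changed by 0.43 and 0.35, and TK1 did not pass there. The interaction was -0.87 ± 0.36 (edgeR adjusted p = 0.12) for CCNE1 and 0.46 ± 0.19 (adjusted p = 0.12) for MCM5. Without both shallow libraries 0 members passed and 10 genes in all, with 0.59 ± 0.19 for MCM2, 0.60 ± 0.20 for TK1 and -1.32 ± 0.38 for CCNE2 (adjusted p = 0.21, 0.23 and 0.17). Without replicate 1 of the knockout cells without selenite, or without replicate 2 of those with it, 0 members passed as well. The interaction uses the libraries of both knockout comparisons and of both selenite comparisons, so calls on 1 gene in several of these are not separate evidence.

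The members did not move as a block across the 12 libraries. Among the 15 pairs of MCM2 to MCM7, Pearson's r of log2 CPM was -0.20 to 0.80 with a median of 0.28, and 0.09 to 0.70 with a median of 0.41 after the group means were removed. These points share library depth and group differences, and they are a description. MCM3 and MCM7 were the most alike (0.80), and MCM5 and MCM6 the least (-0.20). RRM2 was most like CCNE2 among the members (0.83, and 0.10 within groups), and TK1 most like MCM2 (0.80, and -0.33 within groups). The non-member genes whose levels ran most like the mean of MCM2 to MCM7, among 9149 genes of at least 10 CPM, were IGFBP4 (0.92), RRBP1 (0.91), GSN (0.89), TOM1 (0.88) and DDX27 (0.88), none of which belongs to the replication lists used here. Of these, IGFBP4, RRBP1 and GSN fell in knockout cells without selenite (-0.74, -0.66 and -0.50) and did not pass with it (0.12, 0.32 and 0.02). The call of IGFBP4 without selenite was lost in 5 of 21 other settings. All 5 genes were picked for their likeness over these same libraries, so a shared pattern follows in part from that choice.

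Genes that load and start the helicase gave few calls without selenite. More were called lower with it, but most of those calls were lost without both shallow libraries. The median log2 fold changes with selenite were -0.42 for licensing and -0.39 for firing genes, and -0.19 and -0.22 without both shallow libraries. Of 10 origin licensing genes 0 passed in knockout against control cells without selenite, and 1 rose and 4 fell with it. Over all tested genes 23.9% were called without selenite, and 21.3% were higher and 21.6% lower with it. ORC2, a subunit of the origin recognition complex, had 24.6 ± 8.61 CPM in knockout and 50.0 ± 11.5 CPM in control cells with selenite (log2 fold change -0.91 ± 0.23, edgeR adjusted p = 0.0015). CDC6, the ATPase that helps to load the ring, fell by 0.44 ± 0.15, the CDT1 inhibitor geminin (GMNN) by 0.48 ± 0.15 and the MCM-binding protein gene MCMBP by 0.39 ± 0.11 on the log2 scale. CDT1, the loading factor, rose by 0.63 ± 0.20. Other settings lost the call of CDC6 in 6 of 21 cases, DESeq2 among them, and that of CDT1 in 4 of 21. When both shallow libraries were left out, 0 licensing genes rose and 1 fell with selenite. That gene was MCMBP (-0.36, edgeR adjusted p = 0.040), which did not pass with the density trend removed. The others then had -0.57 (ORC2), -0.13 (CDC6), -0.38 (GMNN) and 0.49 (CDT1).

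Of 12 origin firing genes, 1 fell without and 5 fell with selenite (against 12% and 21.6% of tested genes), and 0 rose. The one without selenite was CDC45, which joins the helicase at the start of S phase, at 37.5 ± 2.65 CPM in knockout and 54.6 ± 7.47 CPM in control cells (-0.55 ± 0.18, edgeR adjusted p = 0.021), a call lost in 5 of 21 other settings. With selenite DONSON, a scaffold of helicase assembly, fell by 1.13 ± 0.30, TOPBP1, which helps to bring in the GINS complex, by 0.82 ± 0.18, GINS1, a subunit of that complex, by 0.65 ± 0.18 and DBF4, the activator of the kinase CDC7, by 0.60 ± 0.19. CDC45 did not pass with selenite (-0.28 ± 0.20, adjusted p = 0.26). With the shallow libraries left out, 1 firing gene, DONSON, fell with selenite (-1.06, adjusted p = 0.032), and TOPBP1, GINS1 and DBF4 had -0.44, -0.51 and -0.30.

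At the replication fork 4 of 32 genes fell without selenite and 14 with it (against 12% and 21.6% of tested genes), and 0 rose. Without selenite these were LIG1, the ligase that joins Okazaki fragments (-0.64 ± 0.19), the maintenance methyltransferase DNMT1 (-0.61 ± 0.12), the chromatin assembly factor subunit CHAF1A (-0.61 ± 0.15) and UHRF1, which guides DNMT1 (-0.56 ± 0.15). DNMT1 had 143 ± 12.3 CPM in knockout and 219.6 ± 13.4 CPM in control cells. LIG1 and CHAF1A were also called lower with selenite, while DNMT1 (-0.28, edgeR adjusted p = 0.057) and UHRF1 (0.11, adjusted p = 0.57) were not. For UHRF1 the difference was itself past the threshold (interaction 0.68 ± 0.21, adjusted p = 0.043), but UHRF1 had -0.17 (adjusted p = 0.52) with selenite when both shallow libraries were left out, and no fork gene passed the interaction as higher without both shallow libraries, with the density trend removed or after thinning. With selenite the largest falls were those of the DNA polymerase alpha subunit POLA1 (56.4 ± 12.3 CPM in knockout and 106 ± 15.6 CPM in control cells, -0.94 ± 0.16), the nuclease and helicase DNA2 (-0.91 ± 0.24), the fork protein WDHD1 (-0.78 ± 0.24) and the primase subunit PRIM2 (-0.74 ± 0.21). PCNA, the sliding clamp, averaged 589 ± 23.01 CPM in knockout and 678 ± 27.9 CPM in control cells without selenite (-0.20 ± 0.10, adjusted p = 0.12), and 475 ± 26.5 against 658 ± 95.9 CPM with it (-0.47 ± 0.10, adjusted p = 0.00022). When both shallow libraries were left out, 6 fork genes fell with selenite. POLA1 (-0.98), CHAF1A (-0.71), PCNA (-0.42) and DNMT1 (-0.39) were among them, and DNA2, WDHD1, PRIM2 and LIG1 were not (-0.69, -0.71, -0.34 and -0.52). The call of LIG1 without selenite was lost in 4 of 21 other settings.

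Among 11 other genes of deoxynucleotide supply, 1 rose and 3 fell without selenite, and 1 rose and 5 fell with it. The shares over all tested genes were 11.8% higher and 12% lower without selenite, and 21.3% and 21.6% with it. CTPS1, which makes cytidine triphosphate, was the gene that rose both times, with 234 ± 7.49 CPM in knockout and 144 ± 5.84 CPM in control cells without selenite (0.70 ± 0.11, edgeR adjusted p = 9.0e-06) and 0.34 ± 0.12 (adjusted p = 0.021) with it. RRM1, the large subunit that pairs with RRM2, fell by 0.30 ± 0.11 and by 0.44 ± 0.12, and the deoxycytidine kinase DCK by 0.47 ± 0.15 and by 0.75 ± 0.17. Without selenite the call of RRM1 was lost in 10 of 21 other settings and that of DCK in 5 of 21. The deoxycytidylate deaminase DCTD and the deoxynucleotide hydrolase SAMHD1 fell with selenite by 0.65 ± 0.16 and 0.56 ± 0.18. The difference from the comparison without selenite passed for DCTD (interaction -0.69 ± 0.22, adjusted p = 0.044) and not for SAMHD1 (-0.46 ± 0.24, adjusted p = 0.22). It passed for no gene of this list with DESeq2, without both shallow libraries, with the density trend removed or after thinning. With selenite and without the shallow libraries 1 rose and 3 fell, with 0.41 for CTPS1, -0.78 for DCK, -0.61 for SAMHD1, -0.37 for RRM1 (adjusted p = 0.054) and -0.48 for DCTD (adjusted p = 0.077).

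The 65 genes of these 4 lists had 1 higher and 8 lower without selenite and 2 higher and 28 lower with it, against backgrounds of 12% and 21.6% called lower. Their median log2 fold change was -0.12 without and -0.36 with selenite, while that of all tested genes was -0.00014 and -0.02. Without both shallow libraries 1 rose and 11 fell with selenite, with a median of -0.22 and a background of 11.8% lower. With the density trend removed 1 rose and 25 fell. MCM2 to MCM7 had medians of -0.11 without and 0.09 with selenite. The lists are described by counts only, and no difference between them was tested.

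**Figure D5:**
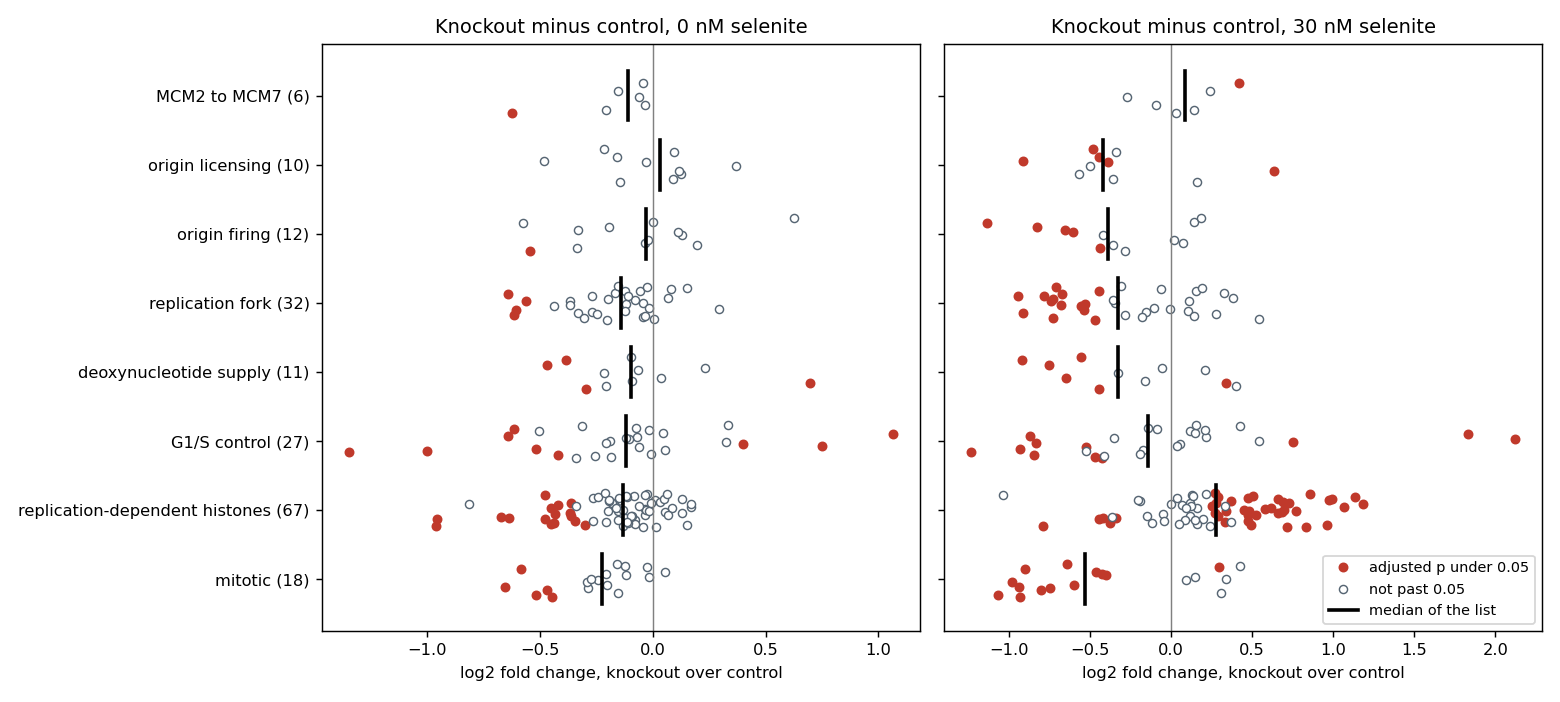
Log2 fold change, knockout over control, of each tested gene in 8 lists (number of genes in brackets) at 0 nM (left) and 30 nM selenite (right), where red points passed an adjusted p of 0.05 and bars mark the list medians. Medians at 0 and 30 nM are -0.14 and -0.33 for fork genes and -0.03 and -0.39 for firing genes. They are 0.03 and -0.42 for licensing genes and -0.23 and -0.53 for mitotic genes. MCM2 to MCM7 have -0.11 and 0.09, and the histone genes -0.13 and 0.28. Without both shallow libraries the 30 nM medians of fork, firing and licensing genes were -0.21, -0.22 and -0.19. No difference between lists was tested.

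Footprints on CDKN1A were higher in knockout cells at both selenite levels, those on CCNA2 were lower at both, and those on CCND1 were lower without selenite. CDKN1A had 150.1, 142 and 152 CPM in knockout cells without selenite, against 68.7, 74.8 and 68.8 CPM in control cells. With selenite it had 196, 261 and 258 CPM in knockout cells, against 57.2, 74.3 and 67.2 CPM in control cells. The genotypes did not overlap at either level, with log2 fold changes of 1.07 ± 0.13 (edgeR, adjusted p = 6.7e-08) and 1.83 ± 0.14 (adjusted p = 3.0e-13). The difference between these passed as an interaction (0.76, edgeR adjusted p = 0.017). That call was lost in 5 of 20 other settings, among them without both shallow libraries (0.52). Cyclin D1 (CCND1), which starts RB phosphorylation, was lower without selenite, at 201 ± 38.9 CPM in knockout and 308 ± 11.9 CPM in control cells (-0.62 ± 0.12, adjusted p = 0.00019), and did not pass with it (-0.09 ± 0.13, adjusted p = 0.61), while the difference between these missed the threshold (0.53 ± 0.17, adjusted p = 0.055). Cyclin A2 (CCNA2), the S phase partner of CDK2, was lower at both levels, with 145 ± 8.97 against 194 ± 10.5 CPM without selenite (-0.42 ± 0.12, adjusted p = 0.0099) and 98.4 ± 20.8 against 182 ± 9.07 CPM with it (-0.84 ± 0.13, adjusted p = 3.8e-06). CDK2 had -0.34 ± 0.15 (adjusted p = 0.088) and -0.43 ± 0.16 (adjusted p = 0.031), the call with selenite being lost in 8 of 21 other settings. With selenite and without both shallow libraries CDKN1A had 1.59 (adjusted p = 1.2e-09), CCNA2 -0.56 (adjusted p = 0.0069) and CDK2 -0.34 (adjusted p = 0.23). E2F1 was scarce in every group, at 5.43 ± 1.88 CPM in knockout and 6.33 ± 2.96 CPM in control cells without selenite, and did not pass.

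Of 31 listed genes of G1/S control 29 are in the table and 27 were tested, of which 3 rose and 6 fell without selenite and 3 rose and 8 fell with it. Over all tested genes 11.8% were higher and 12% lower without selenite, and 21.3% and 21.6% with it. Without both shallow libraries 28 were tested, and 1 rose and 5 fell with selenite (13.4% and 11.8% over all genes). CDKN2C, the CDK4 and CDK6 inhibitor p18, fell by 1.35 ± 0.27 and by 1.23 ± 0.30, and the RB relative RBL1 by 0.52 ± 0.14 and by 0.93 ± 0.16. E2F8, a repressor of the E2F family, fell by 0.999 ± 0.35 and the E2F family gene E2F5 rose by 0.75 ± 0.27 without selenite, and neither passed with it. These calls were lost in 6 of 20 and 7 of 21 other settings. CDKN1B, which encodes the inhibitor p27, had -0.06 ± 0.19 (edgeR, adjusted p = 0.86) without selenite and -0.53 ± 0.21 (adjusted p = 0.044) with it, a call lost in 10 of 21 other settings. CDKN2A had 35.0 ± 6.38 CPM in knockout and 8.42 ± 8.59 CPM in control cells with selenite (2.12 ± 0.72, adjusted p = 0.041), a call lost in 11 of 21. In knockout cells without selenite 10.6% of the 615 tested genes with an E2F word in their window fell and 8.29% rose, against 11.6% and 12% of the 8058 genes with a window but no word. With selenite 22.4% fell and 20% rose, against 21.5% and 21.3%. No difference between these shares was tested.

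Genes used later in the cycle fell in part as well. Without selenite 5 of 18 mitotic genes fell in knockout cells and 0 rose, and with selenite 12 fell and 1 rose (8 and 0 without both shallow libraries). Over all tested genes 12% were lower without selenite, 21.6% with it, and 11.8% with it when both shallow libraries were left out. TOP2A, the topoisomerase that untangles chromosomes, had 481 ± 39.0 CPM in knockout and 691 ± 32.1 CPM in control cells without selenite (-0.52 ± 0.11), and 343 ± 71.3 against 723 ± 84.5 CPM with it (-1.06 ± 0.12). CDK1, the mitotic kinase, fell by 0.44 ± 0.10 and by 0.93 ± 0.11, and the spindle genes KIF11 and NUSAP1 fell by 0.47 ± 0.11 and 0.65 ± 0.11 without selenite.

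Replication-dependent histone genes, whose products package new DNA in S phase, were called higher more than lower in knockout cells with selenite. Without selenite 16 of the 67 tested fell in knockout cells and 0 rose, and with selenite 5 fell and 35 rose, beside 12% of all tested genes lower and 11.8% higher without selenite, and 21.6% and 21.3% with it. With the density trend removed 12 fell and 23 rose with selenite, and the median log2 fold change was 0.03 in place of 0.28. H4C6 had 384 ± 43.3 CPM in knockout and 743 ± 15.7 CPM in control cells without selenite (-0.96 ± 0.11, edgeR adjusted p = 8.8e-09), and H2AC13 had 2113 ± 324 CPM in knockout and 929.6 ± 113 CPM in control cells with it (1.18 ± 0.11, adjusted p = 1.3e-09). Between knockout cells with and without selenite 51 rose and 1 fell, or 34 and 2 with the density trend removed. Without both shallow libraries 17 rose and 5 fell for knockout against control with selenite, and 6 rose and 0 fell for selenite in knockout cells. Summed histone footprints were 71881, 86583 and 92475 CPM in knockout cells with selenite, the last pair being the shallow libraries, against 56821 to 70726 CPM in control cells with selenite. Without selenite they were 49498 to 61316 CPM in knockout and 64674 to 66222 CPM in control cells. Histone genes are near-identical copies of each other, and how shared reads were assigned is not given in the sources used here, so single histone values are uncertain. Whether histone level and depth have a part in the higher MCM2, MCM3, MCM5 and MCM7 values of knockout cells with selenite was not tested, beyond the values without those libraries.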

How the data were processed

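The authors deposited raw footprint counts per gene for 12 libraries, whole numbers summing to 520989 to 1543627. Those counts were used here, and the deposited normalized table was not. Per the labels' protocols, footprints were made with RNase I from cycloheximide and tigecycline lysates, gel-selected and depleted of rRNA. Per the submitters' processing notes, Trim Galore 0.6.10, STAR 2.7.9a, DESeq2 and GRCh38 were used. The counter, the annotation and any use of the molecular identifiers are not given in the sources used here, so counting error is a lower bound.

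The test was edgeR 4.0.16 on these counts, with limma 3.58.1 under R 4.3.3 (filterByExpr with minimum count 10 and minimum total 15, TMM, robust quasi-likelihood fit, 1 coefficient per group over all 12 libraries, 5 contrasts). P-values were adjusted over all 10467 tested genes by Benjamini-Hochberg with a threshold of 0.05. SEs come from the F statistic. The labels do not name separate cultures, so p-values measure the spread between these samples, which may be technical. Library pairs of different groups with the same replicate number had deviations correlated at -0.03 to 0.28 (median 0.08, 18 pairs). Those with different numbers had -0.29 to 0.13 (median -0.05, 36 pairs), so libraries with the same number were somewhat more alike. The labels do not say what the numbers share. They were therefore not taken as pairing in the main fit, and a replicate block was fitted as an alternative. Within groups, library pairs differed beyond sampling noise. A count of 0 allows up to 3 counts, which is 1.97 to 5.99 CPM by library.

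The members and gene lists were chosen with earlier results of these data known. Named were the members, up to 4 list genes per knockout comparison past the threshold with at least 10 CPM (or the 2 most abundant), 7 regulators of G1/S, FTSJ1 and the 5 genes most like MCM2 to MCM7. Gene positions and start-site windows are from RefSeq GRCh38.p14 (12978 genes matched by symbol, 65 by synonym, 31 not). Alternatives tried were DESeq2 1.42.0, 2 other scalings, no filter, each library left out, both shallow libraries left out, a replicate block, thinning, the density trend removed, and fits of only the groups compared.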

Additional observations from a re-analysis of the deposited data

Results flagged for a closer look

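The knockout change of 3 members differed between the selenite levels by the interaction test. MCM2 had a difference of 0.657 on the log2 scale (edgeR, adjusted p = 0.020), from 145 and 141 CPM in knockout and control cells with selenite and 107 and 165 CPM without. TK1 had 0.614 (adjusted p = 0.030), from 151 and 152 CPM in knockout and control cells with selenite and 119 and 183 CPM without. CCNE2 had -1.157 (adjusted p = 0.026), from 13.4 and 38.7 CPM in knockout and control cells with selenite and 25.4 and 34.8 CPM without. The call of MCM2 was lost in 4 of 20 other settings, that of TK1 in 8 of 20 and that of CCNE2 in 9 of 19, and in each gene the direction was kept in all of them. All 3 calls were lost without both shallow libraries, without replicate 1 of the knockout cells without selenite and without replicate 2 of those with it. MCM2 was also lost without replicate 2 of the control cells without selenite. TK1 was also lost without replicate 3 of the knockout cells without selenite, without any 1 of the control libraries without selenite and without replicate 1 of the control cells with it. CCNE2 was also lost without replicate 3 of the knockout cells without selenite and without replicate 1 of each other group, as well as after thinning and with the density trend removed. With a library left out the differences ranged from 0.61 to 0.72 for MCM2, 0.53 to 0.74 for TK1 and -1.26 to -0.995 for CCNE2. No group had more than 3 libraries, so single libraries were not tested for standing apart.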

How the results depend on the processing

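The directions of the members' called changes were kept in all settings but one: with the gene density trend removed, MCM7 had -0.0199 for selenite in knockout cells. Gene counts moved most without both shallow libraries, to 2777 for knockout against control with selenite, 54 for selenite in knockout cells and 10 for the interaction, with 0 members called in the last pair; fewer libraries were fitted there. DESeq2 called 1656 genes for knockout against control without selenite and 1404 for selenite in knockout cells. Thinning every library to the smallest total gave 1381 for the knockout without selenite, 1 for selenite in control cells and 396 for the interaction, and 3 members for selenite in knockout cells. Without the density trend 1226 genes passed for selenite in knockout cells and 359 for the interaction. With only the groups compared in the fit, 4 members passed for the knockout without selenite and 4 genes for selenite in control cells. With the replicate block 5 members passed for the knockout with selenite and 5 for the interaction, with 1268 genes for the interaction and 5 for selenite in control cells. Leaving out each library in turn gave 1882 to 2723 genes and 2 to 3 members for the knockout without selenite, 3674 to 4491 and 2 to 4 with selenite, 1 to 3 and 0 for selenite in control cells, 802 to 2758 and 1 to 6 for selenite in knockout cells, and 123 to 1707 and 0 to 4 for the interaction. The cause was not tested. Footprints per coding length of MCM2 to MCM7 were not run, since no coding lengths were used here, so levels were not compared between genes. Depth limits the E cyclin genes most, with 8 to 51 counts per library.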
